A study of Homo sapiens with 6 samples.

Results

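The measurement described here is how far the response to a cytokine differed between a lung cancer line carrying an active form of YAP and its GFP counterpart. For each gene, the response was the log2 level on a cytokine array minus that on the vehicle array of the same line, and the response difference was the response in the YAP(5SA) line minus the response in the GFP line. A probe was kept where this difference had the same sign for IL-1b and for TNFa, which held for 18060 of the 25893 probes named to a gene. At the level of genes, each read by its brightest probe after the dimmest 40% of probes were left out, 9161 of 12350 genes were kept, and 8366 of them had the same sign after quantile normalization as well. Of the 12350 genes, 5655 (45.8%) had a larger response in the YAP(5SA) line for both cytokines and 3506 (28.4%) a smaller one. Both response differences hold the same vehicle arrays, so the agreement of their signs is the rule of selection and not a result.

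The 6 samples came from the established human cell line H358, a bronchioalveolar carcinoma, and each was hybridised to a 1-colour array. The YAP(5SA) line expresses, per its label, YAP(5SA). In this form of YAP, the coactivator that the Hippo pathway restrains, the inhibitory phosphorylation sites are mutated. The line was exposed to vehicle, IL-1b or TNFa for 60 min. The GFP line, labelled control, received the same 3 treatments for the same time. There was 1 array per condition, and the labels state the cytokine dose in grams per ml, an impossible unit that leaves the dose unknown. Each genotype was 1 line. The sources used here give neither the promoter driving the transgene nor whether the lines were clones or pools.

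IL-1b and TNFa bind different receptors, but both activate NF-kB and the MAP kinases within minutes, and their first target genes encode chemokines, cytokines, adhesion molecules and the inhibitors that shut the same pathways down. Immediate early genes such as EGR1 and FOSB follow MAP kinases and need no new protein. YAP has no DNA-binding domain and acts on genes through TEAD factors, with ANKRD1, CCN1 and CCN2 among its best known targets.

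Median intensities lay between 335.2 and 366.3 on the 3 YAP(5SA) arrays and between 340.7 and 398.1 on the 3 GFP arrays. The median response difference over all genes was 0.01 for IL-1b and 0.26 for TNFa on the log2 scale; after quantile normalization it was 0.02 and 0.07. Of 13 epithelial and alveolar markers, 6 lay above the brightness limit (EPCAM, CDH1, KRT7, KRT8, KRT18 and MUC1). The other 7 did not, namely the epithelial markers KRT19 and CLDN4 and the lineage markers NKX2-1, SFTPA1, SFTPB, SFTPC and NAPSA. Above the limit were 5 of 8 leukocyte markers, with log2 levels of 7.39 to 11.83, 3 of 6 endothelial markers and 2 of 8 fibroblast markers. The probe for YAP1 read 11.67, 12.31 and 12.08 with vehicle, IL-1b and TNFa in the YAP(5SA) line, against 12.91, 12.88 and 12.46 in the GFP line. Its place in the transcript is unknown here, so it does not check whether the transgene was expressed. In these bulk samples, fewer responding cells and less RNA per cell cannot be told apart.

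By size, 62 genes (0.502%) had a response difference of 1 or more (log2, that is 2-fold), with the same sign for both cytokines. The difference was positive in 18 of them (0.146%), which responded more in the YAP(5SA) line, and negative in 44 (0.356%). Among these 62, cytokine-induced genes, defined by a response of at least 1 to both cytokines in at least 1 line, made up 37. They were split into 9 with a larger and 28 with a smaller response in the YAP(5SA) line. This balance depends on the limit, which was moved for the induced response and for the difference together. At 1.5-fold it was 103 larger and 75 smaller, and at 3-fold 8 and 9. It also depends on the cytokine. Among genes induced by that cytokine, it was 19 and 63 from the IL-1b arrays alone and 87 and 51 from the TNFa arrays alone. For 17 of the 37 the difference rested on 1 vehicle array that stood apart, meaning that its distance to the nearest of the other 5 arrays exceeded the range of those 5. Without these, 2 induced genes had a larger response in the YAP(5SA) line (ELF3 and IFNL2) and 18 a smaller one. The 18 hold the feedback inhibitor TNFAIP3, the nuclear IkB family genes NFKBIZ and NFKBID, and the immediate early genes EGR1 and FOSB. They also hold the cytokine TNF and the adhesion molecules ICAM1, ICAM4 and SELE. The rest are CD83, EFNA1, SERPINA3, STAT5A, TRIB1, RND1, C1QBP, TCHH and LINC03025.

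A limma fit across all 12350 genes took the IL-1b and TNFa arrays of a line together, so its spread is the difference between both cytokines within a line, and each lone vehicle array was assumed to vary in the same way. It is not a test on replicates. The fit called 23 genes higher (0.186%) and 3 lower (0.0243%) with cytokine in the YAP(5SA) line, and 43 higher (0.348%) and 1 lower (0.0081%) in the GFP line, at an adjusted p under 0.05. For the response difference it called 10 genes (0.081%), 6 positive (0.0486%) and 4 negative (0.0324%), and each of these 10 had 1 vehicle array apart. No gene without such an array passed, the lowest adjusted p among them being 0.281 for TCHH; at an unadjusted p under 0.05 the fit held 78 genes (0.632%) in all. The smallest called difference was 3.64 and the median standard error 0.47. The differences of the induced genes given next are therefore sizes on single arrays that missed this test. A p that misses the threshold does not show that the lines responded alike.

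**Figure D1:**
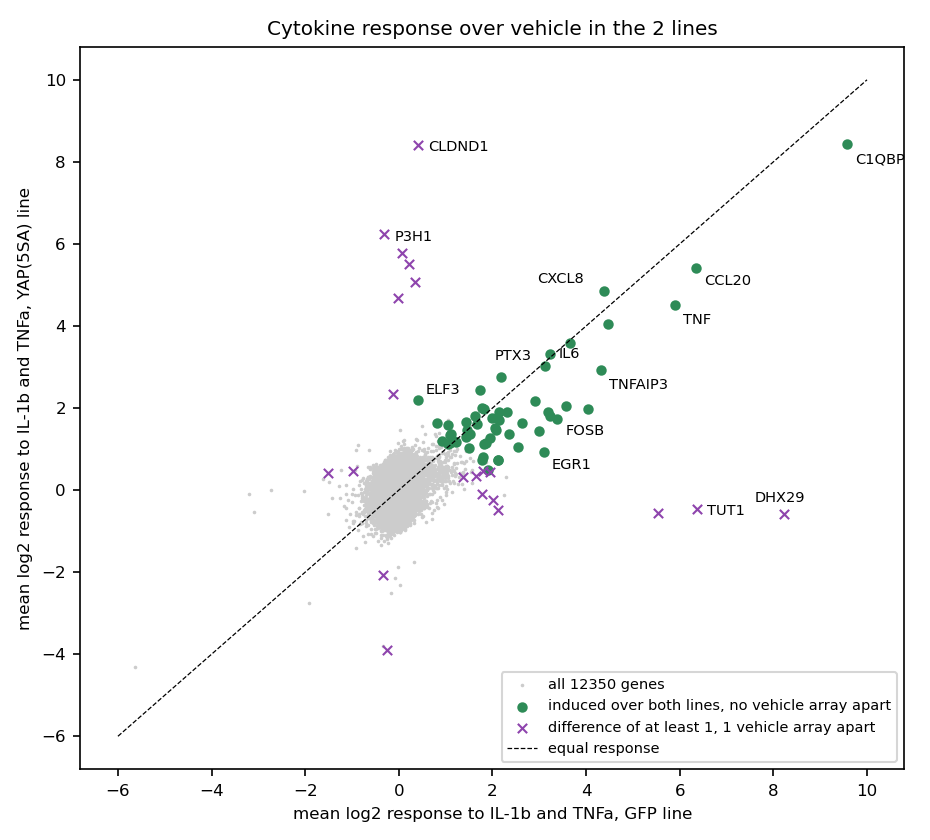
Mean log2 response to IL-1b and TNFa in the YAP(5SA) line (vertical axis) against that in the GFP line (horizontal axis). Grey points are all 12350 genes, green points the 55 genes induced over both lines with no vehicle array apart, and crosses genes with a difference of at least 1 that rests on 1 vehicle array. The dashed line marks equal responses: TNFAIP3, TNF, FOSB and EGR1 lie below it, CXCL8 and ELF3 above, and IL6 and PTX3 next to it.

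The promoters of 4 of these genes are shown because they carry the sequence elements through which the named pathways are known to act. Capitals mark an NF-kB element in ICAM1, NFKBIZ and TNFAIP3, and the serum response factor element known as the CArG box in EGR1. The windows run from 250 bases before to 50 after the gene start in the RefSeq annotation of GRCh38.p14, all on the plus strand. They are chr19:10270870-10271169 for ICAM1, chr3:101827740-101828039 for the upstream start of NFKBIZ, chr6:137867009-137867308 for TNFAIP3 and chr5:138465229-138465528 for EGR1.
ICAM1: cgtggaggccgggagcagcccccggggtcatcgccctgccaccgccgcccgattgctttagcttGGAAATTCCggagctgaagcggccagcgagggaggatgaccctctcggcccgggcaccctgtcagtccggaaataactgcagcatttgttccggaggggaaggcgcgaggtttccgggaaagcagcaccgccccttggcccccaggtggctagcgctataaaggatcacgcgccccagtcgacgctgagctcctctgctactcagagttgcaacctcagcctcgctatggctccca
NFKBIZ: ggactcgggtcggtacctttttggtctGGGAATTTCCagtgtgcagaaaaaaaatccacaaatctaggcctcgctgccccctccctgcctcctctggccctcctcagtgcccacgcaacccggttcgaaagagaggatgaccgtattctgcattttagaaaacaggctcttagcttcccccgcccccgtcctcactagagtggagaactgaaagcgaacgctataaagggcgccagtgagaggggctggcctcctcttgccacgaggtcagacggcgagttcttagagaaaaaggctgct
TNFAIP3: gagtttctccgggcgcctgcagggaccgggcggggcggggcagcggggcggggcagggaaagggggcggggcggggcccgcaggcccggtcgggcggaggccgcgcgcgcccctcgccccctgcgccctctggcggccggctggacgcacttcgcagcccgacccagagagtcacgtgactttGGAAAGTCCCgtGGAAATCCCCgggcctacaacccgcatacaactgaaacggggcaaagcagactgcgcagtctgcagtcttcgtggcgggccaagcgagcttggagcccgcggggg
EGR1: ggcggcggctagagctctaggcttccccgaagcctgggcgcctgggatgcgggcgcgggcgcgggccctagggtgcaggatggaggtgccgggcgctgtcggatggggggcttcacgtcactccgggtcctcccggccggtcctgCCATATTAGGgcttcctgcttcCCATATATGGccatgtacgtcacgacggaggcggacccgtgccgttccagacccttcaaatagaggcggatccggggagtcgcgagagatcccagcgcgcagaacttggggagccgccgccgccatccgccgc

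TNFAIP3 and NFKBIA are induced by NF-kB and restrain it. The list named NF-kB feedback inhibitors also holds the nuclear IkB family genes NFKBIZ and NFKBID, for which restraint is not claimed here. TNFAIP3, the ubiquitin-editing enzyme A20, read 12.56, 15.39 and 15.58 with vehicle, IL-1b and TNFa in the YAP(5SA) line, against 11.80, 16.07 and 16.18 in the GFP line. Its vehicle level was thus higher and both of its cytokine levels were lower in the YAP(5SA) line. TNFAIP3 rose in both lines, by 2.92 ± 0.31 (limma SE) in the YAP(5SA) line and 4.32 ± 0.31 in the GFP line (adjusted p of 0.000682 and 1.7e-05). The response differences were -1.44 for IL-1b and -1.36 for TNFa, with a limma adjusted p of 0.929. NFKBIZ, an inducible nuclear member of the IkB family, read 12.50, 14.36 and 13.55 in the YAP(5SA) line against 11.59, 14.86 and 14.31 in the GFP line, with differences of -1.41 and -1.67. NFKBID, a related nuclear IkB protein, read 7.64, 8.78 and 8.61 in the YAP(5SA) line against 7.36, 9.76 and 10.05 in the GFP line. Its differences were -1.26 and -1.72. NFKBIZ and NFKBID rose by 2.99 ± 0.39 and 2.55 ± 0.32 in the GFP line (limma adjusted p of 0.00407 and 0.00292). Their responses of 1.45 ± 0.39 and 1.06 ± 0.32 in the YAP(5SA) line missed the threshold (0.709 and 0.713). A call in 1 line only is not a test of the difference.

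NFKBIA, which encodes IkBa, the inhibitor that holds NF-kB in the cytoplasm, differed little between the lines. It read 16.74, 18.66 and 18.61 in the YAP(5SA) line against 16.49, 18.66 and 18.57 in the GFP line, and rose in both (limma adjusted p of 0.0298 and 0.0088). Its mean response difference was -0.24, with a 95% interval of -1.19 to 0.72. Of the 11 genes measured in the feedback inhibitor list, 7 had a smaller response for both cytokines in the YAP(5SA) line and 0 a larger one. Over all genes the shares were 28.4% and 45.8%. The median difference of this list was -0.33 for IL-1b and -0.22 for TNFa, beside 0.01 and 0.26 over all genes, and the fit called 0 of its members.

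Immediate early genes code for transcription factors made within minutes of a stimulus. EGR1, a zinc finger factor, read 13.60, 14.53 and 14.53 with vehicle, IL-1b and TNFa in the YAP(5SA) line, against 12.92, 16.21 and 15.83 in the GFP line. The vehicle array read higher and both cytokine arrays read lower in the YAP(5SA) line. EGR1 rose by 3.09 ± 0.32 in the GFP line, which the limma fit called, whereas its response of 0.92 ± 0.32 in the YAP(5SA) line missed the threshold. Its differences of -2.36 and -1.98 were the most negative among the 55 genes induced over both lines, described further on, at a mean of -2.17 with a 95% interval of -3.17 to -1.18 and an adjusted p of 0.387.

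FOSB, a partner of JUN proteins in AP-1, read 9.48, 11.45 and 10.99 in the YAP(5SA) line against 9.71, 13.57 and 12.61 in the GFP line. The vehicle levels of FOSB lay close together, and its response differences were -1.88 and -1.39. NR4A1, an orphan nuclear receptor, fell just outside the size limit with a smaller-of-both difference of -0.97. JUNB had differences of -0.87 and -0.53 and ATF3 of -0.82 and -1.17; both are bZIP factors, and they were named after their values were seen. Differences of FOS itself were unlike in sign, at -0.44 and 0.22. Of 27 immediate early genes measured, 15 had a smaller and 4 a larger response in the YAP(5SA) line for both cytokines. Among all genes, 28.4% had a smaller and 45.8% a larger one. The size limit was passed by 2 of the 27, both with a smaller response, beside 0.356% of all genes. The median difference of the 27 was -0.44 for IL-1b and -0.21 for TNFa. Their median response was 0.37 in the YAP(5SA) line against 0.78 in the GFP line.

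Among secreted signals, TNF itself was induced from a vehicle level near the bottom of the scale. It read 6.76, 11.70 and 10.84 with vehicle, IL-1b and TNFa in the YAP(5SA) line, against 6.63, 12.95 and 12.11 in the GFP line. TNF rose in both lines, by 4.51 ± 0.43 in the YAP(5SA) line and 5.90 ± 0.43 in the GFP line (limma adjusted p of 0.000232 and 1.7e-05), with response differences of -1.38 and -1.40. CCL20, a chemokine that attracts cells bearing CCR6, read 10.82, 16.50 and 15.95 in the YAP(5SA) line against 10.81, 17.27 and 17.06 in the GFP line. The vehicle levels of CCL20 were nearly equal, and its differences of -0.77 and -1.11 did not pass the size limit for both cytokines.

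CXCL8 and IL6 had different levels in the 2 lines, with response differences under 1. CXCL8, the neutrophil attractant interleukin-8, read 9.87, 14.82 and 14.59 in the YAP(5SA) line against 12.12, 16.35 and 16.64 in the GFP line, lower on every YAP(5SA) array. Its responses of 4.84 in the YAP(5SA) line and 4.37 in the GFP line differed by 0.47 (95% interval -0.53 to 1.46). IL6 went the opposite way in level, at 9.33, 13.22 and 12.07 in the YAP(5SA) line against 6.26, 9.78 and 9.21 in the GFP line. IL6 rose in both lines (adjusted p of 0.00526 and 0.00556 by limma), and the mean difference was 0.09 (95% interval -1.28 to 1.46).

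PTX3, a soluble pattern recognition molecule, was also higher on all 3 YAP(5SA) arrays, with response differences of 0.05 for IL-1b and -0.24 for TNFa. The neutrophil attractants CXCL1 and CXCL2 had differences of 0.54 and 0.62 and of 0.32 and -0.45; with CXCL3 they are close paralogs, so cross-hybridisation between their probes is uncertain. Of the 11 chemokines measured, 4 had a larger and 4 a smaller response in the YAP(5SA) line for both cytokines. The shares over all genes were 45.8% and 28.4%. The only chemokine past the size limit was CXCL10, whose difference rested on the GFP vehicle array. CXCL10 read 9.82, 9.54 and 9.92 in the YAP(5SA) line against 7.82, 9.44 and 9.75 in the GFP line. CXCL11, which shares its receptor with CXCL10, had differences of -0.95 and -1.16, and IL1A, which encodes interleukin-1 alpha, of -2.10 and -0.69. Of 20 cytokines and growth factors, 7 had a larger and 7 a smaller response, and TNF alone passed the size limit.

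Genes for adhesion and survival proteins differed among themselves. ICAM1, a ligand of leukocyte integrins, read 7.60, 8.57 and 8.07 with vehicle, IL-1b and TNFa in the YAP(5SA) line, against 7.69, 10.03 and 9.58 in the GFP line. The vehicle levels of ICAM1 were alike, and both of its cytokine levels were lower in the YAP(5SA) line. ICAM1 rose by 2.12 ± 0.35 in the GFP line (limma adjusted p = 0.0213), while its response of 0.72 ± 0.35 in the YAP(5SA) line missed the threshold (0.713). Its differences were -1.38 and -1.41, with a mean of -1.40 and a 95% interval of -2.48 to -0.31. The fit did not call this difference, and ICAM1 is among the genes picked by size.

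ICAM4, a red cell adhesion molecule of the same family, had differences of -2.58 and -1.32, and SELE, the selectin on which leukocytes roll, of -1.43 and -1.41. Both read under 10 on the log2 scale on every array, where the added constant of 16 makes changes look smaller. CD83, a surface protein of activated immune cells, read 9.24, 11.18 and 10.88 in the YAP(5SA) line against 8.16, 11.63 and 11.14 in the GFP line, with differences of -1.52 and -1.33. Of 25 adhesion, prostaglandin and survival genes, 13 had a smaller and 6 a larger response in the YAP(5SA) line, beside 28.4% and 45.8% of all genes. The size limit was passed by 4 of the 25, all with a smaller response, beside 0.356% of all genes. The median difference of this list was -0.23 for IL-1b and -0.06 for TNFa. One of the 4, SDC4, rested on the GFP vehicle array, and another, CD274, was not induced by the limit of 1, with responses of -0.14 and -0.18 in the YAP(5SA) line against 0.88 and 0.89 in the GFP line. PTGS2, the inducible cyclooxygenase, went the other way, at 11.12, 13.70 and 13.42 in the YAP(5SA) line against 15.63, 17.31 and 17.40 in the GFP line, with differences of 0.89 and 0.53. On the linear scale its mean rise of intensity was 9903 in the YAP(5SA) line against 117209 in the GFP line, so for PTGS2 the direction turns with the scale.

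TCHH, a structural protein of hair follicles, had the lowest p among genes with no vehicle array apart. It read 9.61, 9.64 and 9.33 in the YAP(5SA) line against 8.56, 11.03 and 10.61 in the GFP line. TCHH rose in the GFP line by 2.25 ± 0.33, which the limma fit called. Its 2 responses in the YAP(5SA) line were 0.03 and -0.28, which gave differences of -2.44 and -2.33. EFNA1, a ligand of Eph receptors, read 14.78, 16.48 and 16.88 in the YAP(5SA) line against 13.38, 16.37 and 16.76 in the GFP line. Here the cytokine levels were nearly equal, and the differences of -1.29 and -1.28 came with a higher vehicle level in the YAP(5SA) line. A second EFNA1 probe gave -0.78 and -0.68.

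SERPINA3, an acute phase protease inhibitor, was lower on all 3 YAP(5SA) arrays, at 6.12, 8.52 and 7.81 against 7.90, 12.08 and 10.85 in the GFP line. STAT5A, a transcription factor activated by cytokine receptors, was likewise lower on all 3, with differences of -1.52 and -1.25. TRIB1, a pseudokinase, and RND1 stood just inside the limit with smaller-of-both differences of -1.08 and -1.02. C1QBP, a mitochondrial matrix protein, read 5.24 and 4.37 on the YAP(5SA) and GFP vehicle arrays and between 13.57 and 14.01 on the 4 cytokine arrays. That jump of over 8 log2 units was read by a single probe. Both vehicle arrays lay far from the rest here, which the check for 1 vehicle array apart does not catch. The last of the 18, the non-coding RNA LINC03025, had differences of -2.19 and -1.98 from vehicle levels near 6.

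**Figure D2:**
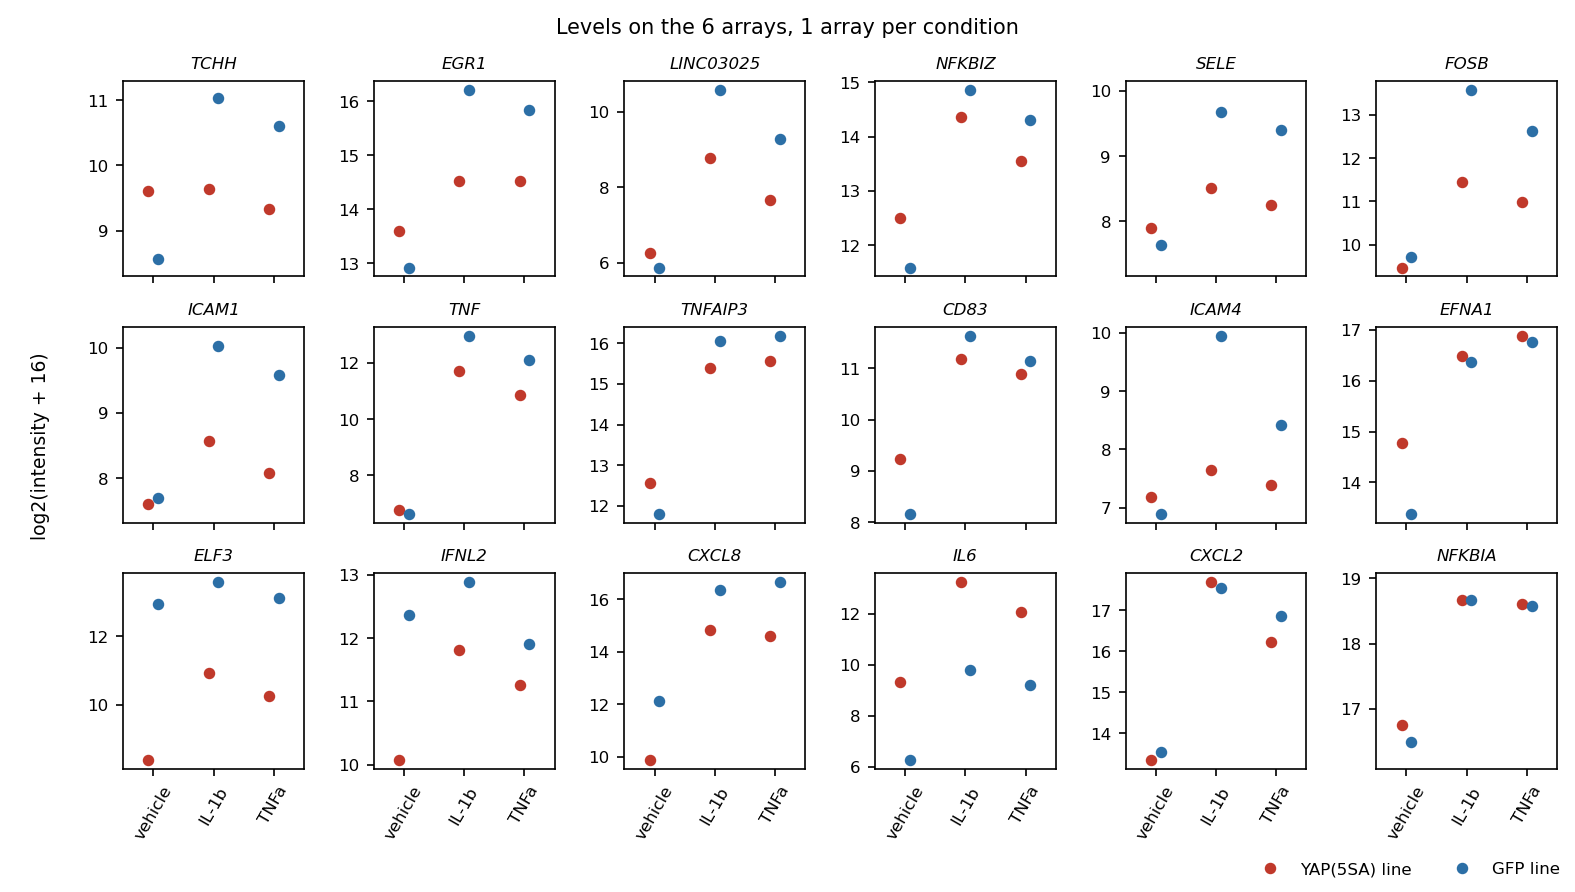
Level of 18 genes, log2(intensity + 16), on each of the 6 arrays, with YAP(5SA) arrays left (red) and GFP arrays right (blue) in each pair; each point is 1 array and there is no error bar. The upper 2 rows hold 12 of the 18 induced genes with a smaller response in the YAP(5SA) line, such as EGR1 at 14.53 and 14.53 with cytokine against 16.21 and 15.83 in the GFP line; the bottom row holds ELF3 and IFNL2, with larger responses, and 4 genes with similar ones.

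The levels behind these 18 smaller responses, which the selection fixes in part, were not all arranged in the same way. In 17 of the 18, both cytokine arrays read lower in the YAP(5SA) line than in the GFP line, EFNA1 being the exception. In 12 of the 18 the vehicle level was higher in the YAP(5SA) line, so that 11 genes combined a higher vehicle level with lower cytokine levels. The other 6 of the 17 (FOSB, ICAM1, SERPINA3, STAT5A, TRIB1 and RND1) had a vehicle level that was not higher. A response of at least 1 to both cytokines was met in both lines by 9 of the 18 and in the GFP line alone by the other 9. With a single vehicle array per line, a line difference before treatment and an error of that array cannot be told apart.

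ELF3, an epithelial transcription factor of the ETS family, had the larger response in the YAP(5SA) line. It read 8.40, 10.92 and 10.26 with vehicle, IL-1b and TNFa in the YAP(5SA) line, against 12.95, 13.57 and 13.12 in the GFP line, so every YAP(5SA) array was lower. ELF3 rose by 2.19 ± 0.37 in the YAP(5SA) line (limma adjusted p = 0.033) and had a response of 0.40 ± 0.37 in the GFP line (adjusted p = 1). The response differences were 1.90 and 1.68, and a second probe gave 1.05 and 1.38. On the linear scale the mean rise of intensity was 1245 in the YAP(5SA) line against 2639 in the GFP line, so the direction of the ELF3 difference holds for ratios and turns for linear amounts.

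IFNL2, a type III interferon, read 10.08, 11.81 and 11.26 in the YAP(5SA) line against 12.37, 12.88 and 11.92 in the GFP line, with differences of 1.22 and 1.64. A second IFNL2 probe gave 0.34 and -0.37, and the gene has near-identical paralogs, so this value is uncertain. Second probes were available for 9 of the 62 genes, and only those of EFNA1 and ELF3 had the sign of the first for both cytokines. Over all genes with a second probe, 1108 of 2833 had both signs equal to that of the first probe's mean difference. These genes include some whose first probe had unlike signs for both cytokines, so this count is not like that of the 9.

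So that induced genes were not chosen by their response difference, they were also taken by the mean response of both lines, at least 1 for each cytokine; this set was added after the values were seen. It held 67 genes, 55 of them with no vehicle array apart. Of these 55, 31 (56.4%) had a smaller and 9 (16.4%) a larger response in the YAP(5SA) line for both cytokines, beside 28.4% and 45.8% of all 12350 genes. Signs were unlike in the other 15. Under the other settings tried, between 52.3% and 64.2% of such genes had a smaller response, beside 27.9% to 36.4% of all genes. The size limit was passed by 14 of the smaller responses and 1 of the larger, beside 0.356% and 0.146% of all genes.

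The median response of the 55 to IL-1b was 1.65 in the YAP(5SA) line against 2.23 in the GFP line, and that to TNFa was 1.51 against 1.86 in the GFP line. The median response difference was -0.50 for IL-1b and -0.36 for TNFa. Median YAP(5SA) minus GFP levels of the 55 were 0.02 with vehicle, -0.70 with IL-1b and -0.52 with TNFa, and in 47 genes the linear rise of intensity was smaller in the YAP(5SA) line. The limma fit called 16 of the 55 higher with cytokine in the YAP(5SA) line and 34 in the GFP line. Over all genes it called 0.186% and 0.348% higher. The 55 were chosen by their mean response, and the adjustment was made for each line apart. The counts of 16 and 34 therefore do not compare the responses. No response difference among the 55 was called. At an unadjusted p under 0.05 the limma fit held 16 smaller and 1 larger, beside 0.632% of all genes in either direction. The 95% interval of the response difference included 0 for 38 of the 55 genes.

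**Figure D3:**
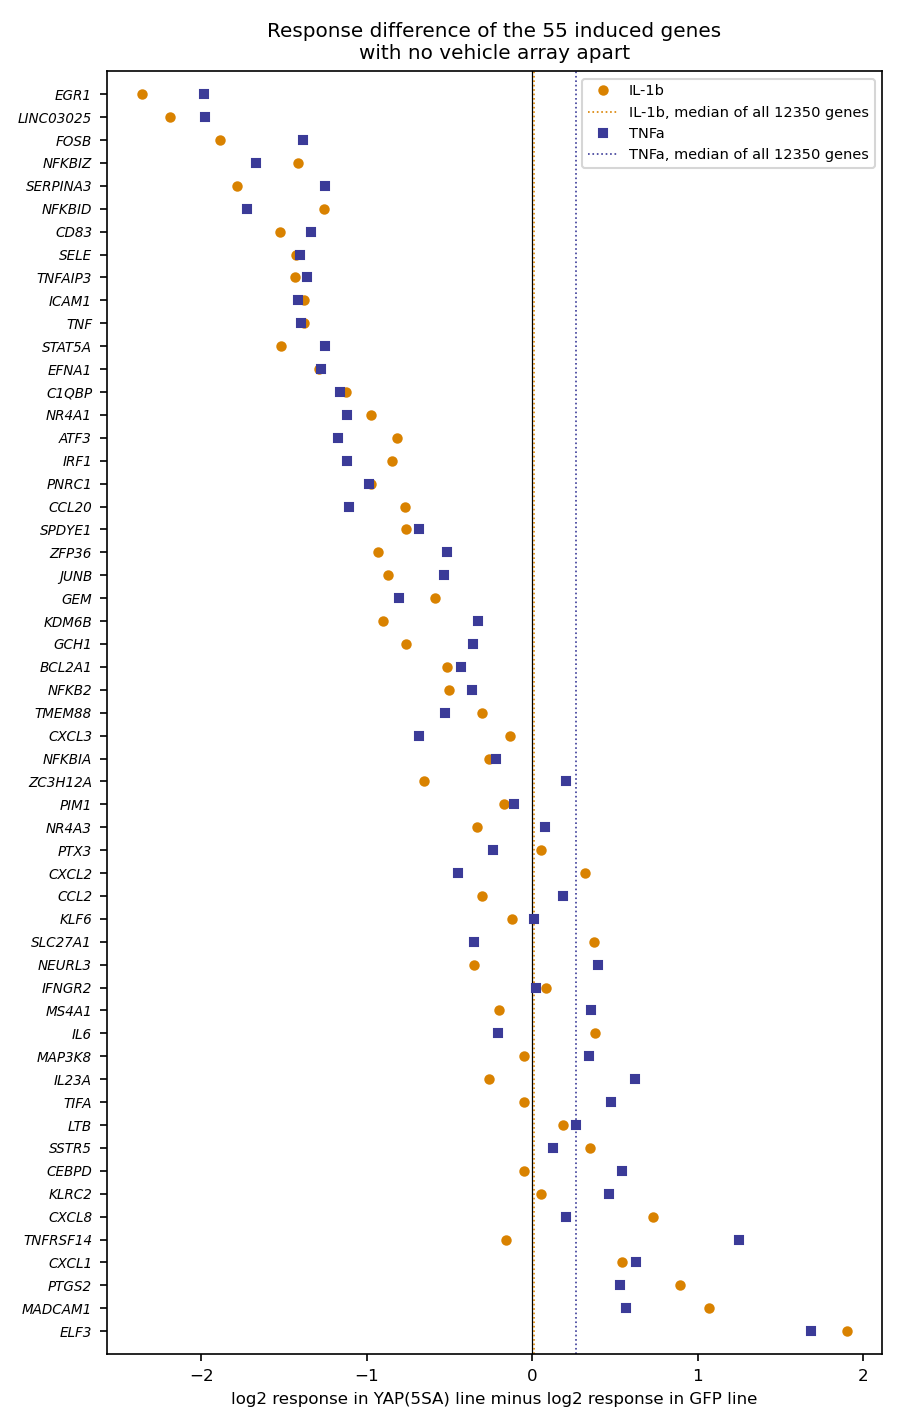
Response difference, YAP(5SA) minus GFP, of the 55 genes induced over both lines with no vehicle array apart, on the log2 scale, for IL-1b (circles) and TNFa (squares). Dotted lines mark the medians of all 12350 genes, at 0.01 for IL-1b and 0.26 for TNFa. Genes run from EGR1 at the top to ELF3 at the bottom, and 31 of 55 have both points left of 0.

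Lists of related genes were compared by their counts and medians, with no test of the lists. Among all genes, 45.8% had a larger and 28.4% a smaller response in the YAP(5SA) line for both cytokines. Of 10 NF-kB and IRF transcription factors, 7 had a smaller and 1 a larger response in the YAP(5SA) line, with median differences of -0.53 for IL-1b and -0.35 for TNFa and no member past the size limit. IRF1, which switches on interferon-type genes, had differences of -0.85 and -1.12, and NFKB2, the precursor of p52, of -0.50 and -0.36. Of 7 JAK-STAT feedback genes, 6 had a smaller response and 1 a larger one. Of 5 mRNA decay factors, 1 had a smaller response for both cytokines and 0 a larger one. Their median differences were -0.24 for IL-1b and 0.21 for TNFa. The 1 with a smaller response was ZFP36, which binds AU-rich elements of cytokine mRNAs, with differences of -0.93 and -0.51.

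Interferon-induced genes had 9 larger and 7 smaller responses of 23, with median differences of -0.08 for IL-1b and 0.18 for TNFa. The 15 stress genes had 5 of each. Shares over all genes were 45.8% larger and 28.4% smaller. Of 25 cell cycle genes, 12 had a smaller and 4 a larger response; FOXM1, a factor for mitotic genes, passed the size limit at -1.86 and -1.61. For FOXM1 the difference rested on the YAP(5SA) vehicle array. Housekeeping genes had 4 larger and 4 smaller responses of 11. Their median differences were 0.11 for IL-1b and -0.16 for TNFa, beside 0.01 and 0.26 over all genes. The fit called 0 members of any of the 20 lists.

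**Figure D4:**
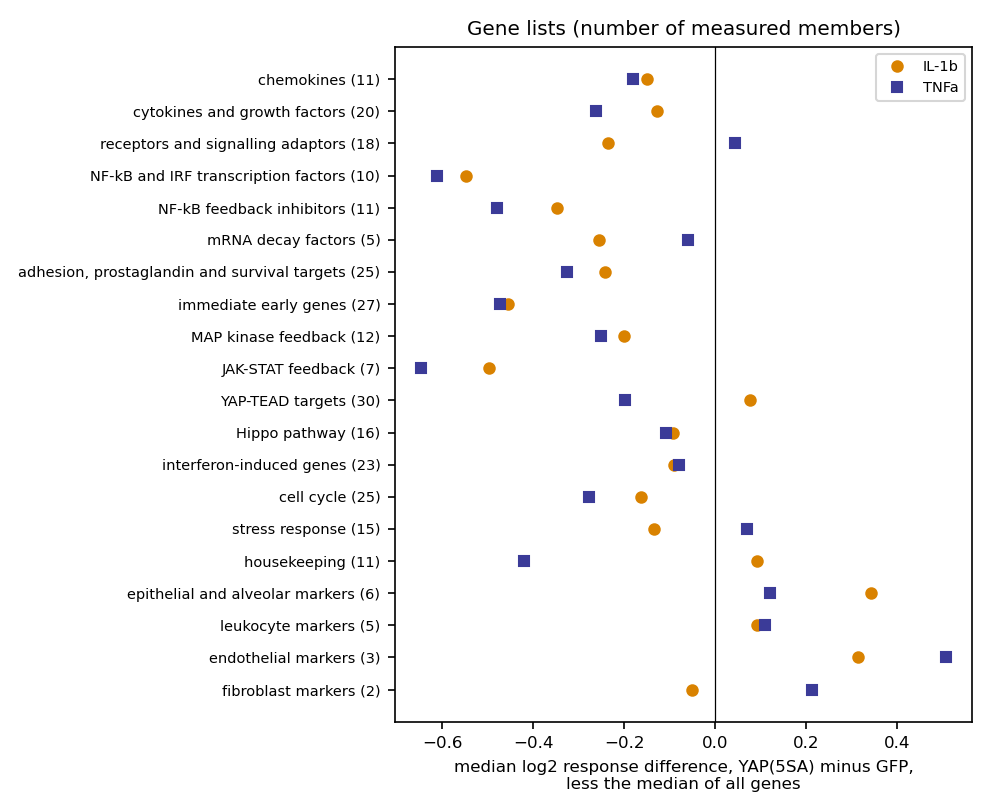
Median response difference of each gene list, YAP(5SA) minus GFP on the log2 scale, for IL-1b (circles) and TNFa (squares), after the median of all genes for that cytokine was subtracted; the number of measured members stands in brackets. The lists of NF-kB and IRF factors, NF-kB feedback inhibitors, immediate early genes and JAK-STAT feedback genes lie furthest left for both cytokines. For TNFa the housekeeping list lies close to them, at -0.42 beside -0.47 for immediate early genes. For IL-1b the housekeeping list lies at 0.09.

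Target genes of YAP and TEAD were examined because YAP is best known to act on them. Of 30 measured, 14 had a larger and 10 a smaller cytokine response in the YAP(5SA) line, beside 45.8% and 28.4% of all genes. None passed the size limit. The median difference was 0.09 for IL-1b and 0.07 for TNFa, beside 0.01 and 0.26 over all genes. ANKRD1, a muscle ankyrin repeat protein, read 9.91, 9.70 and 9.30 in the YAP(5SA) line against 6.96, 6.58 and 6.09 in the GFP line. The level of ANKRD1 was thus higher on every YAP(5SA) array, while its response differences were only 0.18 and 0.26. The matricellular protein genes CCN1 and CCN2 had differences of 0.29 and 0.77 and of -0.05 and 0.42. MYOF, a membrane repair protein, had the largest agreeing difference of the list, at 0.91 and 1.07, and F3, tissue factor, the most negative, at -0.73 and -0.68. For YAP1 itself the differences were 0.66 and 0.85.

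The promoter windows were searched on both strands for the kB consensus, for the shorter NF-kB form GGANNTTCC, which can overlap it, for the AP-1 element TGANTCA, for the TEAD element GGAATG and for the CArG box. The shorter NF-kB form and the CArG box were added after the values were seen. Of the 18 induced genes with a smaller response, 16 had a window, and 9 of these (56.2%) held either NF-kB form. Among the 34 with a window of 41 other induced genes, 21 (61.8%) held one, beside 19.7% of 10058 windowed genes measured and 13.6% of all 35116 windows. The TEAD element was found in 18.8% of the genes with a smaller response, 17.6% of the other induced genes and 15.2% of all measured genes. The AP-1 element was found in 6.25%, 11.8% and 7.38% of the same sets. EGR1 was the only one of the 16 with a CArG box, which 1.7% of measured genes held. A match is a stretch of letters and not a binding site.

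Few genes were repressed with a response difference. Defined by a response of -1 or lower to both cytokines in at least 1 line, 7 of the 62 genes were repressed, 4 of them with no vehicle array apart. PFKP, a phosphofructokinase of glycolysis, read 16.44, 16.20 and 16.48 in the YAP(5SA) line against 16.06, 11.61 and 14.10 in the GFP line, and neither response was called. IFFO2 fell by 4.32 ± 0.35 on the log2 scale in the YAP(5SA) line and fell by 5.64 ± 0.35 in the GFP line (limma adjusted p of 3.98e-05 and 3.2e-06), with response differences of 1.49 and 1.15. IFFO2 read 12.49 and 13.60 on the YAP(5SA) and GFP vehicle arrays and between 7.85 and 8.47 on the 4 cytokine arrays. As for C1QBP, both vehicle arrays lay far from the rest, which the check for 1 vehicle array apart does not catch. LINC00856 had responses of 0.33 and 0.04 in the YAP(5SA) line against -1.30 and -1.68 in the GFP line. ENO3, the muscle enolase, had responses of -1.45 and -3.19 in the YAP(5SA) line against -0.35 and 0.41 in the GFP line. Each of the 4 was read by a single probe.

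The 10 genes called for the response difference were read far from all other arrays on 1 vehicle array. DHX29, an RNA helicase of translation initiation, read 12.59, 11.86 and 12.14 with vehicle, IL-1b and TNFa in the YAP(5SA) line, against 4.0, 12.10 and 12.33 in the GFP line. Its response difference was -8.80 ± 0.46 (limma adjusted p = 2.63e-06), and it rests on the GFP vehicle array, which stood at the floor of the scale. CLDND1, a claudin-like membrane protein, read 5.05, 13.29 and 13.63 in the YAP(5SA) line against 13.32, 13.41 and 14.05 in the GFP line, with a difference of 8.0 ± 0.51 (adjusted p = 1.36e-05) that rests on the YAP(5SA) vehicle array. The 7 calls resting on that array were CLDND1, P3H1, KNTC1, LAX1, TMEM156, KIF5B and CLEC19A, and those resting on the GFP vehicle array were DHX29, TUT1 and BLM.

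KIF5B, a kinesin motor, was the only one of the 10 with a second probe. That probe gave differences of -0.50 and -0.18, where the first gave 4.49 and 4.89. Over all 12350 genes, the YAP(5SA) vehicle array stood apart for 465 and the GFP vehicle array for 132. A level that truly differed only in that culture and a fault of that spot cannot be told apart.

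**Figure D5:**
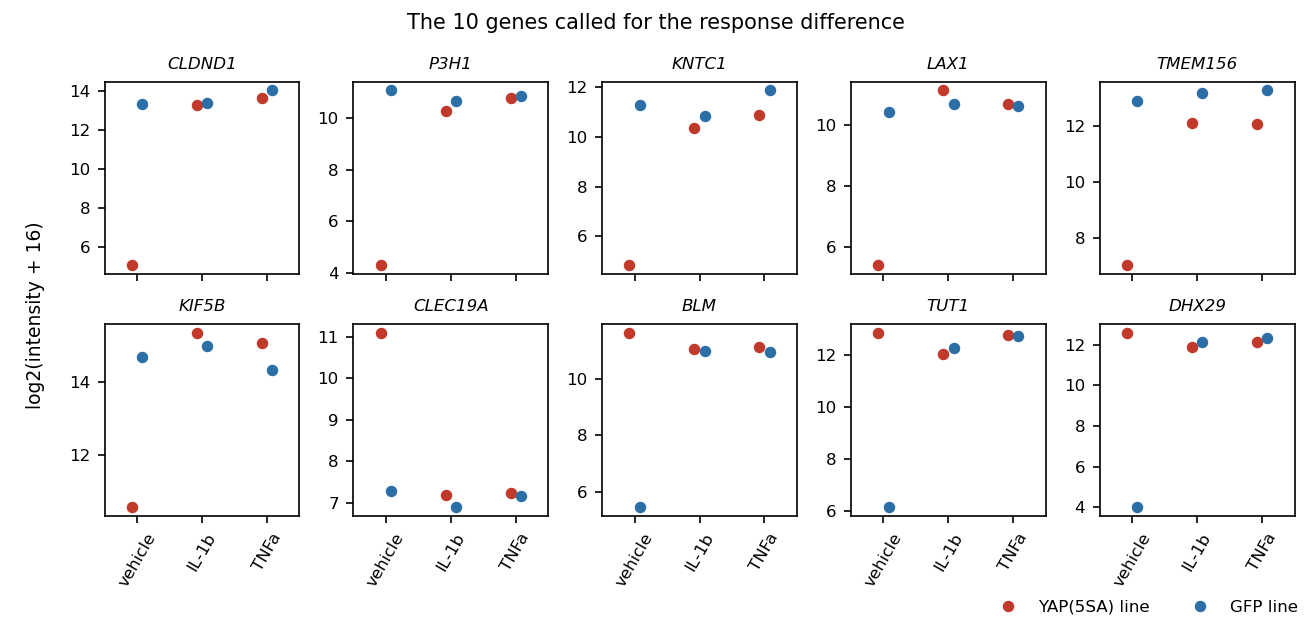
Level of the 10 genes called for the response difference, log2(intensity + 16), on the 6 arrays, with YAP(5SA) left (red) and GFP right (blue) in each pair and 1 array per point. In each panel 1 vehicle point lies far from the other 5, as for DHX29 at 4.0 on the GFP vehicle array against 11.86 to 12.59 elsewhere.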

How the data were processed

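Expression was measured on 6 one-colour Cy5 arrays, 1 per condition. The values deposited by the authors were linear intensities per probe; 10 to 1146 of them per array lay below 0, which background subtraction gives. Positive intensities up to 10000 were whole multiples of a step of the array (tolerance 0.02 of a step), so each array holds integers times a constant of its own. Scanner, background method and scaling target are not stated in the sources used here. Trizol RNA was amplified, per the labels' protocols, to amino-allyl antisense RNA before dye coupling. The number of arrays limits the precision.

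Of 28264 probes, 25893 carried 1 gene in the platform annotation, 0 several and 2371 none. All 25893 identifiers matched the RefSeq table used for current symbols and stood for 19090 genes. Negative values were raised to 0 and log2(value + 16) was computed, so that changes of dim genes are understated. The dimmest 40% of named probes by mean were left out, and the brightest probe stood for its gene (12350 genes). Of 331 genes in 20 lists, 277 were measured and 14 had no probe.

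The fit used lmFit and eBayes of limma 3.58.1 in R 4.3.3, with 4 coefficients, 2 residual degrees of freedom and a prior of 9.99, and Benjamini-Hochberg adjustment over all genes. It was run on simulated data in which the noise was drawn alike for every array and no vehicle array was set apart. That run cannot check the assumption about the lone vehicle arrays, because it was built on it. Values after ± are limma standard errors, and 95% intervals use the same fit. The members and lists were chosen with earlier results of these data known. The genes named were, of those with no vehicle array apart, the 12 induced and 6 repressed per direction with the largest smaller-of-both difference; 4 per direction with 1 vehicle array apart; up to 3 members of each list; and 27 fixed names. Genes at the edge of the size limit and those that complete a count of 18, 10 or fewer are named as well, as are JUNB, ATF3, NFKB2, CD274, TBX6 and ERBB4, chosen after their values were seen. Alternatives were quantile normalization, median centring, no filter or 60% left out, pseudocounts of 1 and 64, the mean of all probes, trended robust eBayes and size limits of 1.5-fold and 3-fold. Leaving out genes with 1 vehicle array apart and using either cytokine alone were chosen after seeing the data.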

Additional observations from a re-analysis of the deposited data

Results flagged for a closer look

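The response difference, YAP(5SA) minus GFP, passed the limma test in 10 genes, each with 1 vehicle array apart. On the log2 scale it was 8.0 in CLDND1, 6.55 in P3H1, 5.72 in KNTC1, 5.30 in LAX1, 4.73 in TMEM156 and 4.69 in KIF5B. It was -3.64 in CLEC19A, -6.07 in BLM, -6.82 in TUT1 and -8.80 in DHX29.

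In another 17 of the genes named, both cytokine responses had one sign in the YAP(5SA) line and the opposite sign in the GFP line; for none of them was this difference called by the fit, and the opposition of signs itself was not tested. The response was positive in the YAP(5SA) line and negative in the GFP line for 10 of them. Their mean differences were 1.97 in TBX6, 1.67 in LINC00856, 1.61 in ERBB4, 0.76 in YAP1, 0.74 in GUSB, 0.67 in TEK, 0.63 in CDC6, 0.47 in KRT18, 0.42 in AXL and 0.37 in CD14. The response was negative in the YAP(5SA) line and positive in the GFP line for the other 7. Their mean differences were -1.15 in SOCS2, -1.04 in CD274, -1.02 in DDIT3, -0.82 in JAK2, -0.58 in IRAK1, -0.55 in ISG20 and -0.49 in MX2. Of the 17, 6 (TBX6, LINC00856, ERBB4, SOCS2, CD274 and DDIT3) were at least 1 in mean size. The 17 came from a search of 93 genes named by rule and of others added after their values were seen. The share of all genes with such opposite signs was not counted, so the count of 17 is not a result about these genes.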

How the results depend on the processing

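No paired analysis was possible because each condition had 1 array and the labels give no replicate numbers. The values rest on single arrays, both response differences share the vehicle arrays, and no setting gave a called response difference without 1 vehicle array apart. Counts by size moved with the size limit, the filter and the cytokine: with 1.5-fold, 569 genes had a larger and 534 a smaller response in the YAP(5SA) line (induced, 103 and 75; repressed, 22 and 58), and with 3-fold 12 had a larger and 11 a smaller one (induced, 8 and 9; repressed, 1 and 2). The limit for an induced or repressed response moved with the size limit. With no filter on dim probes the counts were 35 larger and 280 smaller, 105 of these repressed, and with 60% left out 18 induced genes had a smaller response. From the IL-1b arrays alone they were 52 and 211 (induced, 19 and 63), and from the TNFa arrays alone 940 and 203 (induced, 87 and 51). Here induced means a response of at least 1 to that cytokine in at least 1 line. Without genes with 1 vehicle array apart, 9 genes had a larger response by size, induced genes numbered 2 larger and 18 smaller, 1 repressed gene had a smaller one, 9 genes induced over both lines had a larger one, and the fit called 0 in either direction. The sign rule held for 9161 genes after the filter. Median differences of lists moved in 3 of 278 values: chemokines, TNFa, -0.45 with the mean of all probes; epithelial markers, IL-1b, -0.22 and fibroblast markers, TNFa, -0.27 with no filter. Endothelial markers had no value with 60% left out. Of the 93 genes named by rule, 10 were called in the main fit, so for most values keeping the call meant staying uncalled. Of 720 values of named genes, 710 kept their direction and call, 0 called values changed sign, and 4 lost the call. The causes were not tested. KIF5B with the mean of its probes was 2.17 (limma adjusted p = 0.316), and uncalled values of IL6, MUC1, PTX3 and TNFRSF1A changed sign in 6 settings.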

Other observations

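Of the 62 genes past the size limit, 18 were neither induced nor repressed by the limit of 1 for both cytokines in a line. Of these, 13 had a smaller and 5 a larger response in the YAP(5SA) line, and 17 had no vehicle array apart. TBX6, a T-box transcription factor, had responses of 1.31 and 0.91 in the YAP(5SA) line against -1.06 and -0.67 in the GFP line. ERBB4, a receptor tyrosine kinase, had responses of 1.10 and 0.86 in the YAP(5SA) line against -0.44 and -0.82 in the GFP line. Of 1239 unnamed probes above the brightness limit, 4 passed the size limit, 2 of them with no vehicle array apart.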
